A study of Homo sapiens and Mus musculus with 15 samples.

Results

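The genes described here are 9 effector genes of cytotoxic lymphocytes, of 32285 genes in the scRNA-seq files, namely Gzma, Gzmb, Gzmc, Gzmk, Prf1, Nkg7, Ccl5, Ifng and Klrg1. They were chosen by their measured values in these same libraries, so their levels in scRNA-seq are given as a description and no test was applied to them there. They were read in CD8 T cells, which had at least 2 UMIs of Cd3d, Cd3e and Cd3g together and at least 1 UMI of Cd8a and Cd8b1, in NK cells, which had at least 1 UMI of Ncr1 and Klrb1c and no Cd3 UMI, and in all other cells. A UMI is a molecular tag that counts 1 captured transcript. The gates held 909 CD8 T cells and 74 NK cells of 15198 cells in the Old library, against 27 CD8 T cells and 35 NK cells of 15667 cells in the Young library.

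The study profiled the retinal pigment epithelium (RPE), the pigmented layer behind the retina, together with the vascular choroid beneath it. The Old library came from C57BL/6J mice of 24 months and the Young library from C57BL/6J mice of 3 months, with 1 library per age, and how many mice were pooled in each is not given in the sources used here. The condition label of the library of 3 months also reads old, against its title and its age, which were followed here. Tissue was dissociated with papain, and the labels name no transgene or treatment for either age. A second experiment sequenced bulk RNA of eye-cup lysates from old C57BL/6J mice, with 2 libraries from mice given TRULI, an inhibitor of the LATS kinases, and 2 Ctrl libraries from mice not given it. Nothing in the labels says whether libraries of 1 group came from separate animals, so p-values measure only the spread between these libraries.

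Cytotoxic lymphocytes kill target cells by releasing granules that hold perforin, a protein that opens the target membrane, and granzymes, serine proteases that enter through the opening and start cell death. The same cells secrete the cytokine interferon gamma and chemokines that recruit further leukocytes. CD8 T cells recognise peptides through a T cell receptor, whereas NK cells and other innate lymphocytes carry germline-encoded receptors, and in a healthy young eye few of either are found in the RPE and choroid.

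The Old library held 82897938 UMIs in the cells kept and the Young library 89817876. A gated cell had a median of 3160 UMIs in Old and 4127 UMIs in Young for CD8 T cells, and of 3331 UMIs in Old and 4079 UMIs in Young for NK cells. The libraries shared 381 cell barcodes, of which 17 belonged to gated Old cells, 1 to a gated Young cell and 0 to cells gated in both. The gates were checked against markers that they did not use. In the CD8 T gate, Lck, the kinase of T cell receptor signalling, was detected in 78.3% of Old and 92.6% of Young cells, and Cd4 in 0.660% of Old and 0 Young cells. In the NK gate, Fcer1g, a signalling adaptor, was detected in 97.3% of Old and 100% of Young cells, and Trac, the T cell receptor alpha constant gene, in 2 of 74 Old and 0 Young cells. Fcer1g is not particular to NK cells, since the bulk eye-cup libraries held 104.87 to 178.01 TPM of it with Ncr1 listed at 0. Eomes, Klra8 and Klra4, also listed as NK markers, were each detected in fewer NK-gate cells of both libraries, with values by set given below. Cxcr6, a chemokine receptor found on many tissue lymphocytes, was detected in 24.3% of Old and 28.6% of Young NK-gate cells and in 51.8% of Old and 25.9% of Young CD8 T cells, and whether the NK gate also holds other innate lymphocytes was not tested.

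Transcripts of RPE cells were found in every gated cell. The 5 RPE markers listed (Rpe65, Rlbp1, Ttr, Trpm3 and Rgr) made a median of 1.04% of the UMIs of an Old CD8 T cell and 0.390% of a Young one, and of 1.15% of an Old NK cell and 0.50% of a Young one. None of the 5 was at 0 in any gate. Over whole gates, on the CPM scale that sets the UMIs of a gate to a fixed total, the list summed to 25551 CPM in Old and 10496 CPM in Young CD8 T cells, and to 35868 CPM in Old and 4112 CPM in Young NK cells. In the same gates 8 pan-leukocyte genes such as Ptprc and Coro1a summed to 5802 CPM in Old and 7564 CPM in Young CD8 T cells, and to 4945 CPM in Old and 8039 CPM in Young NK cells. Macrophage markers (C1qa, C1qb, C1qc, Csf1r, Adgre1 and Lyz2) summed to 898 CPM in Old and 307 CPM in Young CD8 T cells, with 0 of the 6 at 0 in Old and 1 in Young, and to 1837 CPM in Old and 118 CPM in Young NK cells, with 0 of the 6 at 0 in Old and 2 in Young. The part of this RNA in the ratios given here was not tested, and values scaled to the leukocyte genes, chosen after the RPE transcripts were seen, are given where they change a call of an effector gene or of a related gene named with its ratio. That scaling adds 0.38 to every log2 ratio of Old over Young in CD8 T cells and 0.70 in NK cells.

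Most transcripts of the effector genes lay in the gated lymphocytes, which were far more frequent in the Old library. CD8 T cells were 5.98% of Old cells (exact 95% binomial interval 5.61 to 6.37%) and 0.172% of Young cells (0.114 to 0.251%). NK cells were 0.487% of Old cells (0.383 to 0.611%) and 0.223% of Young cells (0.156 to 0.311%). With 1 library per age, age and library cannot be told apart, and the intervals here and below cover counting error only. Summed over the 9 genes, CD8 T and NK cells together held 83.6% of 35139 UMIs in Old and 74.0% of 7327 UMIs in Young. CD8 T cells alone held 73.3% in Old and 24.5% in Young, and NK cells 10.3% in Old and 49.5% in Young. The larger holder was thus the CD8 T gate in Old and the NK gate in Young.

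**Figure D1:**
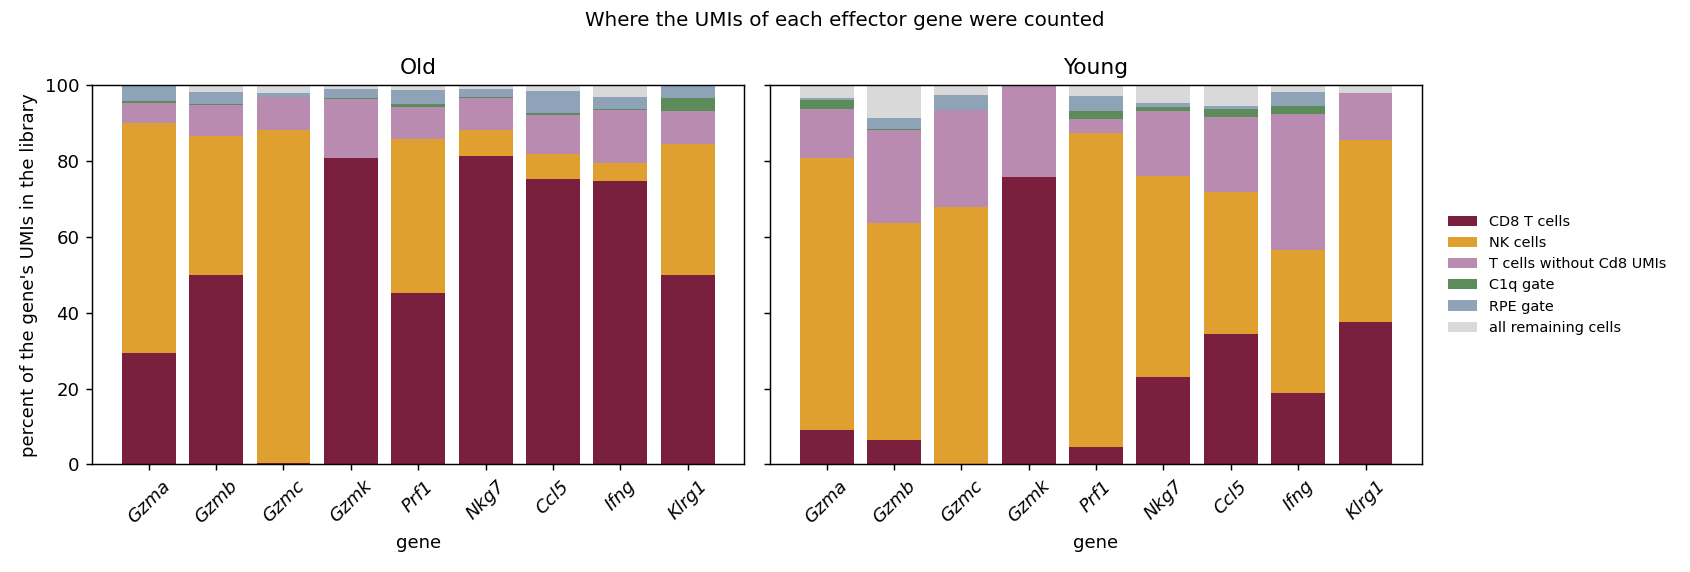
Percent of each effector gene's UMIs (y axis) counted in 6 groups of cells, by gene (x axis), in the Old library (left) and the Young library (right). CD8 T cells held 80.7% of the Gzmk UMIs in Old and 75.7% in Young, while NK cells held 87.6% of the Gzmc UMIs in Old and 67.8% in Young.

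The genes did not share 1 distribution over the gates. Gzmk UMIs were in CD8 T cells (80.7% in Old, 75.7% in Young) and in no NK cell of either library. Gzmc UMIs were in NK cells (87.6% in Old, 67.8% in Young), with 0.487% of them in Old CD8 T cells and 0 in Young CD8 T cells. Gzma UMIs were divided, with 29.3% in CD8 T cells and 60.6% in NK cells of Old, and 9.02% in CD8 T cells and 71.7% in NK cells of Young. In the Old library Gzmb (49.8% CD8 T, 36.7% NK) and Prf1 (45.1% CD8 T, 40.6% NK) were split more evenly, although CD8 T cells outnumbered NK cells there.

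Over all cells of a library, 5 of the 9 genes were at least 2-fold higher in Old and 0 at least 2-fold lower, where 6.86% of 17499 genes with at least 20 UMIs were 2-fold higher and 8.09% 2-fold lower. Gzmk was at 18.2 CPM in Old and 0.412 CPM in Young, a log2 ratio of 5.47 (exact 95% interval 5.00 to 5.98). Ifng was at 7.41 CPM in Old and 0.590 CPM in Young (log2 ratio 3.65), Nkg7 at 89.2 CPM in Old and 11.1 CPM in Young (3.01), Ccl5 at 276 CPM in Old and 43.1 CPM in Young (2.68), and Gzmc at 4.96 CPM in Old and 2.04 CPM in Young (1.28). Prf1 (0.99), Gzmb (0.89), Klrg1 (0.39) and Gzma (-0.21) did not reach 2-fold. The median log2 ratio was 1.28 over the 9 genes and -0.12 over all genes with UMIs in both libraries. These whole-library differences chose the genes, and they were not tested.

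Within the CD8 T gate the order was different. Of 8 effector genes with at least 20 UMIs, 0 were at least 2-fold higher in Old and 2 were at least 2-fold lower, where 9.89% of 10699 genes were 2-fold higher and 8.72% 2-fold lower. Their median log2 ratio was -0.73, against -0.06 over 9519 of the 10699 genes, those with UMIs in both libraries. Within the NK gate 0 of 8 were higher and 3 of 8 lower, where 10.0% of 4239 genes were higher and 9.48% lower. The median log2 ratio there was -0.91 for the effector genes and -0.17 for the 4218 genes with UMIs in both libraries. The ninth gene was Gzmc in CD8 T cells, with 2 UMIs, and Gzmk in NK cells, with 0.

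**Figure D2:**
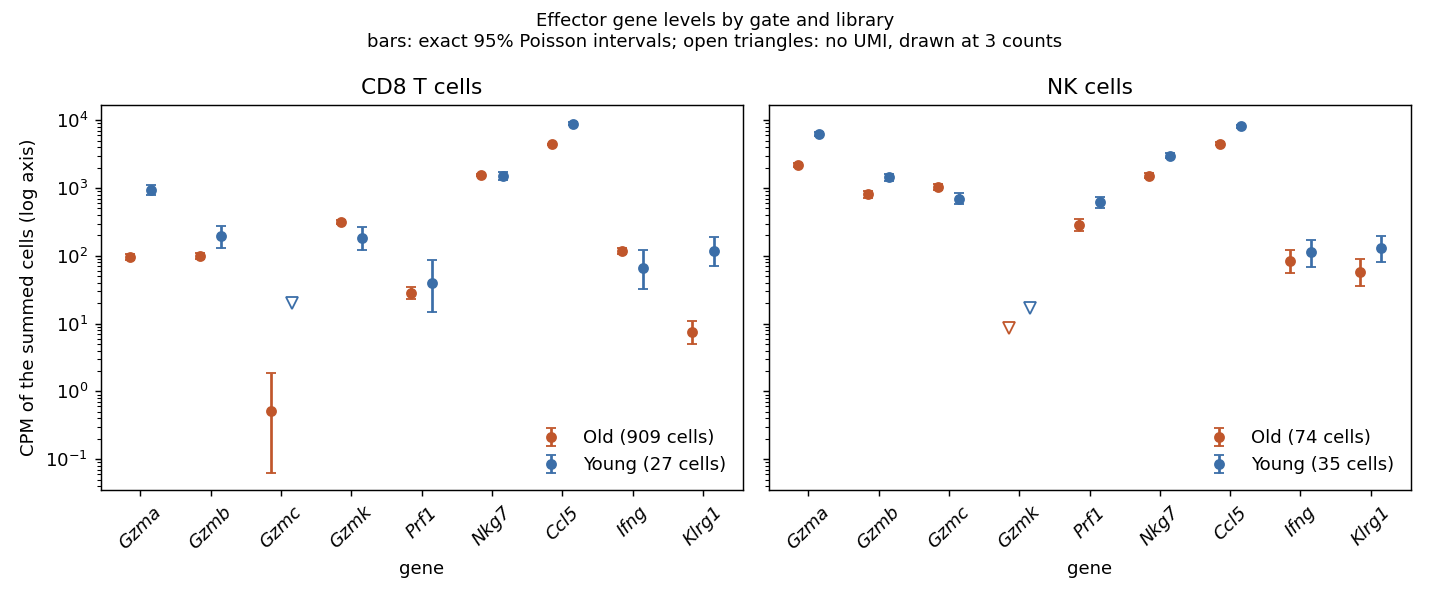
CPM of the summed cells (y axis, log scale) of each effector gene (x axis) in CD8 T cells (left) and NK cells (right), Old and Young side by side, with exact 95% Poisson intervals. Open triangles mark 0 UMIs, drawn at 3 counts. Klrg1 was at 7.52 CPM in Old and 120 CPM in Young CD8 T cells, while Nkg7 was at 1557 and 1519 CPM.

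Among the granule proteases, Gzma (ENSMUSG00000023132), a tryptase-like granzyme, was at 95.2 CPM in Old CD8 T cells and 940 CPM in Young ones, a log2 ratio of -3.30 (-3.59 to -3.01). The Young value came from 141 UMIs in 8 of 27 cells, of which 54 UMIs were in a single cell, and without the top cell of each library the ratio was -3.04. In Old, 43 of 909 cells (4.73%) had a Gzma UMI. In NK cells Gzma was at 2213 CPM in Old and 6329 CPM in Young (log2 ratio -1.52, -1.65 to -1.38), and 35.1% of Old and 68.6% of Young cells had a UMI. With each cell thinned to 1000 UMIs these shares were 30.1% in Old and 68.6% in Young. Scaled to the leukocyte genes, the log2 ratio was -0.82 in NK cells, under 2-fold, and -2.92 in CD8 T cells.

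Gzmb (ENSMUSG00000015437), a granzyme that cleaves after aspartate and activates caspases, was at 98.8 CPM in Old and 193 CPM in Young CD8 T cells (log2 ratio -0.97, -1.51 to -0.37). It was detected in 12.8% of Old and 25.9% of Young CD8 T cells. The Young level again rested on few cells, with 82.8% of its 29 UMIs in 3 cells, and the log2 ratio was -0.22 without the top cell of each library. In NK cells it was at 819 CPM in Old and 1438 CPM in Young (-0.81, -1.06 to -0.56).

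Gzmk (ENSMUSG00000042385), another tryptase-like granzyme, was the granzyme detected in most Old CD8 T cells. It was at 316 CPM in Old and 187 CPM in Young CD8 T cells, a log2 ratio of 0.76 (0.22 to 1.36). Of Old CD8 T cells 58.7% (55.5 to 62.0%) had a UMI, and of Young ones 33.3% (16.5 to 54.0%). Thinned to 1000 UMIs the shares were 31.9% in Old and 14.8% in Young. Beyond 2-fold the ratio came only with other settings, at 1.17 without the top cell, 1.30 after thinning and 1.14 scaled to the leukocyte genes. No NK cell of the 74 in Old and 35 in Young had a Gzmk UMI, which leaves exact 95% upper limits of 4.86% of Old and 10.0% of Young cells for cells with a UMI at this depth, not for cells that express the gene.

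Gzmc (ENSMUSG00000079186), a granzyme of the mouse cluster next to Gzmb, was at 1050 CPM in Old and 699 CPM in Young NK cells (log2 ratio 0.59, 0.29 to 0.89). Its cells were few, 27 in Old and 6 in Young. In Young 85 of the 124 UMIs were in 1 cell, and without the top cell of each library the ratio was 1.97. Scaled to the leukocyte genes it was 1.29, past 2-fold. In CD8 T cells it had 2 UMIs in 2 Old cells and 0 UMIs in Young.

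Prf1 (ENSMUSG00000037202), perforin, was at 28.5 CPM in Old and 40.0 CPM in Young CD8 T cells (log2 ratio -0.49, -1.66 to 0.99), an interval that holds both directions. The Young value was 6 UMIs. In NK cells it was at 289 CPM in Old and 621 CPM in Young (-1.10, -1.51 to -0.70), with a UMI in 51.4% of Old and 74.3% of Young cells, and scaled to the leukocyte genes this ratio was -0.40.

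Nkg7 (ENSMUSG00000004612), a membrane protein of cytotoxic granules that takes part in their release, did not differ between the CD8 T gates beyond counting error. It was at 1557 CPM in Old and 1519 CPM in Young CD8 T cells (log2 ratio 0.03, -0.16 to 0.23). Its share of cells was 97.2% in Old (96.0 to 98.2%) and 81.5% in Young (61.9 to 93.7%). In NK cells it was at 1513 CPM in Old and 2984 CPM in Young (-0.98, -1.16 to -0.80), and -0.28 scaled to the leukocyte genes.

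Ccl5 (ENSMUSG00000035042), the chemokine RANTES, had the highest level of the 9 genes in CD8 T cells of both libraries, at 4458 CPM in Old and 8877 CPM in Young (log2 ratio -0.99, -1.07 to -0.91). Levels of different genes are compared here per UMI and without regard to length, since the 5′ protocol counts 1 end of each transcript. The chemokine was found in more of the Old cells, 94.3% against 66.7% of the Young, and 46.4% of the Young UMIs lay in 3 cells. In NK cells it was at 4533 CPM in Old and 8151 CPM in Young (-0.85, -0.95 to -0.74), and -0.15 scaled to the leukocyte genes.

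Ifng (ENSMUSG00000055170), interferon gamma, was at 119 CPM in Old and 66.6 CPM in Young CD8 T cells (log2 ratio 0.84, -0.06 to 1.91). It was detected in 219 Old cells (24.1%) and in 2 Young cells (7.41%). The ratio ranged from 0.05 to 1.74 over the alternative settings and passed 2-fold in 3 of them, at 1.26 by the mean of CPM over cells, 1.22 scaled to the leukocyte genes and 1.74 without the top cell. In NK cells it was at 84.5 CPM in Old and 113 CPM in Young (-0.42, -1.29 to 0.48), and its sign there changed in 3 of 9 alternative settings.

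Klrg1 (ENSMUSG00000030114), an inhibitory receptor of terminally differentiated T and NK cells that binds cadherins, showed the lowest Old over Young ratio of the 8 genes compared in CD8 T cells. It was at 7.52 CPM in Old, from 29 UMIs in 22 of 909 cells, and at 120 CPM in Young, from 18 UMIs in 8 of 27 cells (log2 ratio -4.00, -4.89 to -3.06). The shares were 2.42% in Old (1.52 to 3.64%) and 29.6% in Young (13.8 to 50.2%), and 0.997% and 18.5% after thinning. In NK cells it was at 58.3 CPM in Old and 130 CPM in Young (-1.15, -2.09 to -0.22). That ratio was 0.17 without cells that held markers of B cells, macrophages, endothelium, mast cells or neutrophils, and -0.45 scaled to the leukocyte genes.

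**Figure D3:**
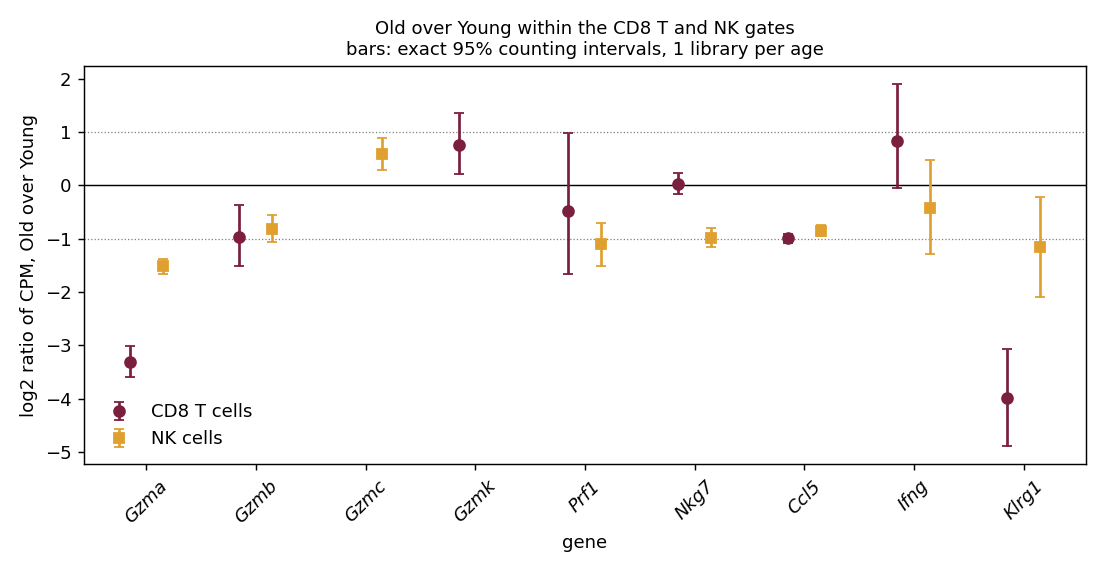
Log2 ratio of CPM, Old over Young (y axis), for each effector gene (x axis) in CD8 T cells (circles) and NK cells (squares), with exact 95% counting intervals, for genes with at least 20 UMIs over both libraries. Dotted lines mark 2-fold. Gzma (-3.30) and Klrg1 (-4.00) lie far below 2-fold in CD8 T cells, and their values in NK cells are -1.52 and -1.15.

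Counting of free RNA was read in cells that should lack these genes. Cells outside the lymphocyte gates in which the RPE markers made at least 50000 CPM numbered 5119 in Old, with a median of 4135 UMIs, and 1748 in Young, with a median of 12093 UMIs. Among them Ccl5 was found in 1.74% of Old and 0.229% of Young cells, Nkg7 in 0.840% of Old and 0.229% of Young, Gzmk in 0.215% of Old and 0 Young, and Gzma in 0.0195% of Old and 0.114% of Young. Gzmc in CD8 T cells rested on 2 UMIs, with a UMI in 0.220% of Old cells (0.0267 to 0.793%) against 0.0391% of the Old RPE-rich cells (0.00473 to 0.141%) and in 0 Young cells of both kinds, and Gzmk in NK cells was at 0.

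CD8 T and NK cells of the same library were then set side by side. In Old, 1 of the 9 genes was at least 2-fold higher in CD8 T cells and 5 were at least 2-fold lower, where 8.70% of 10823 genes were higher and 5.48% lower. In Young, 1 was higher and 4 were lower, where 4.93% of 2761 genes were higher and 11.7% lower. Among genes with UMIs in both gates, the median log2 ratio of CD8 T over NK cells in Old was -3.00 for effector genes and -0.03 for all. In Young these medians were -0.97 and -0.15. Gzma was lower in CD8 T cells by a log2 ratio of -4.54 in Old and -2.75 in Young, Gzmb by -3.05 in Old and -2.90 in Young, and Prf1 by -3.34 in Old and -3.96 in Young. Gzmc stood at -10.98 in Old (-14.03 to -9.12), a ratio that rests on 2 UMIs in CD8 T cells, and in Young it was at least 35.0-fold lower in CD8 T cells, with 0 UMIs taken as 3 counts per gate. Gzmk went the other way, at least 36.1-fold higher in CD8 T cells of Old and at least 11.03-fold higher in those of Young, with the NK gate at the same floor.

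In Old, Nkg7 (0.04, -0.09 to 0.17) and Ccl5 (-0.02, -0.10 to 0.05) did not differ between CD8 T and NK cells beyond counting error, nor did Ifng (0.49, -0.05 to 1.09), and the sign of Nkg7 was the same in only 2 of 9 alternative settings. In Young, Nkg7 stood at -0.97 (-1.20 to -0.75), Ccl5 at 0.12 (0.01 to 0.23) and Ifng at -0.76 (-2.02 to 0.40). Klrg1 was lower in CD8 T cells of Old (-2.95, -3.83 to -2.06), while in Young its interval held both directions (-0.11, -1.09 to 0.84).

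A CD8 T cell of Old had UMIs of a median of 3 of the 9 genes and one of Young also of 3, and an NK cell of 4 in Old and 5 in Young. In the Old CD8 T gate, which holds 909 cells, Gzma and Gzmb were often found in the same cells, while Gzmk was found at similar shares with and without Gzma. Gzmb was in 69.8% of the 43 cells with Gzma and 9.93% of the 866 without it, and Gzmk in 51.2% of cells with Gzma and 59.1% of those without it. Gzmk without Gzma or Gzmb was seen in 466 cells (51.3%), Gzma or Gzmb without Gzmk in 61 (6.71%), both in 68 (7.48%) and none of the 3 in 314 (34.5%). These sets were drawn after the values had been seen and at a depth where many transcripts are missed, so their values are a description. Klrg1 was in 1 of the 466 cells with Gzmk alone (0.215%), in 14.8% of the 61 cells with Gzma or Gzmb alone, in 13.2% of the 68 cells with both and in 0.955% of the 314 cells with none. Ccl5 was at 4361 CPM with Gzmk alone, 7865 CPM with Gzma or Gzmb alone, 9866 CPM with both and 3072 CPM with none. Klrg1 and Ccl5 were thus higher in both sets with Gzma or Gzmb, whether or not Gzmk was detected.

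Other genes differed between the same sets. Pdcd1, which encodes the inhibitory receptor PD-1, was at 222 CPM in cells with Gzmk alone, 87.0 CPM in cells with Gzma or Gzmb alone, 185 CPM in cells with both and 120 CPM in cells with none. Tigit, another inhibitory receptor, was in 62.7% of cells with Gzmk alone, 34.4% with Gzma or Gzmb alone, 47.1% with both and 44.3% with none. Eomes, a transcription factor of memory and cytotoxic T cells, was in 40.1% of cells with Gzmk alone, 19.7% with Gzma or Gzmb alone, 25% with both and 25.5% with none. Cells with none of the 3 granzymes still had Nkg7 in 92.7% of cells, at 1147 CPM. Of the 22 Old CD8 T cells with Klrg1, 16 had Gzmb and 12 had Gzma. Of 43 cells with Gzma, 30 also had Gzmb, whereas of 116 cells with Gzmb the same 30 had Gzma. In Young, 7 of the 8 CD8 T cells with Klrg1 had Gzma and 5 had Gzmb.

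In the NK gate Gzma and Gzmc were never found in the same cell. Of 74 Old cells 26 (35.1%) had Gzma, 27 (36.5%) had Gzmc, 0 had both and 21 (28.4%) had neither. Of 35 Young cells 24 (68.6%) had Gzma, 6 (17.1%) had Gzmc, 0 had both and 5 (14.3%) had neither. Klrg1 and most Prf1 and Ccl5 transcripts went with Gzma. Klrg1 was in 11 of 26 such cells in Old and 13 of 24 in Young, and in none of the cells with Gzmc or with neither. Their Prf1 level was 811 CPM in Old and 994 CPM in Young, against 134 CPM in Old and 110 CPM in Young in cells with Gzmc. Their Ccl5 level was 12907 CPM in Old and 12619 CPM in Young, against 1656 and 2016 CPM. Between the libraries, the Prf1 and Ccl5 levels of cells with Gzma were closer than those of the whole NK gates. These cells were picked by Gzma, with which both genes went, and the reason for the closer levels was not tested. The 5 RPE markers summed to 40208 CPM in the Old and 5111 CPM in the Young cells with Gzma.

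Other genes were found in cells with Gzmc and also in cells with neither. Xcl1, a chemokine that attracts dendritic cells, was in 26 of 27 cells with Gzmc in Old and 6 of 6 in Young, in 17 of 21 cells with neither in Old and 5 of 5 in Young, and in 10 of 26 cells with Gzma in Old and 6 of 24 in Young. Cxcr6 was in 14 of 27 cells with Gzmc in Old and 6 of 6 in Young, in 4 of 21 cells with neither in Old and 4 of 5 in Young, and in no cell with Gzma of either library. Itga1, the integrin CD49a, was in 9 of 27 cells with Gzmc in Old and 3 of 6 in Young. It was in 3 of 21 cells with neither in Old and 1 of 5 in Young, and in 2 of 26 cells with Gzma in Old and 0 of 24 in Young. Eomes was in 2 of 27 cells with Gzmc in Old and 1 of 6 in Young, against 15 of 26 cells with Gzma in Old and 21 of 24 in Young. In cells with neither, Eomes was in 8 of 21 in Old and 1 of 5 in Young. Klra8 was in 10 of 26 Old cells with Gzma, 1 of 27 with Gzmc and 4 of 21 with neither. In Young, Klra8 was in 16 of 24, 0 of 6 and 1 of 5 cells of these sets. Klra4 was in 10 of 26, 1 of 27 and 4 of 21 in Old, and in 8 of 24, 0 of 6 and 1 of 5 in Young. Gzmb was shared, at 1349 CPM in Old and 1748 CPM in Young cells with Gzma, and at 1043 CPM in Old and 1657 CPM in Young cells with Gzmc. These sets too were drawn after the values had been seen, and the smallest holds 5 cells.

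**Figure D4:**
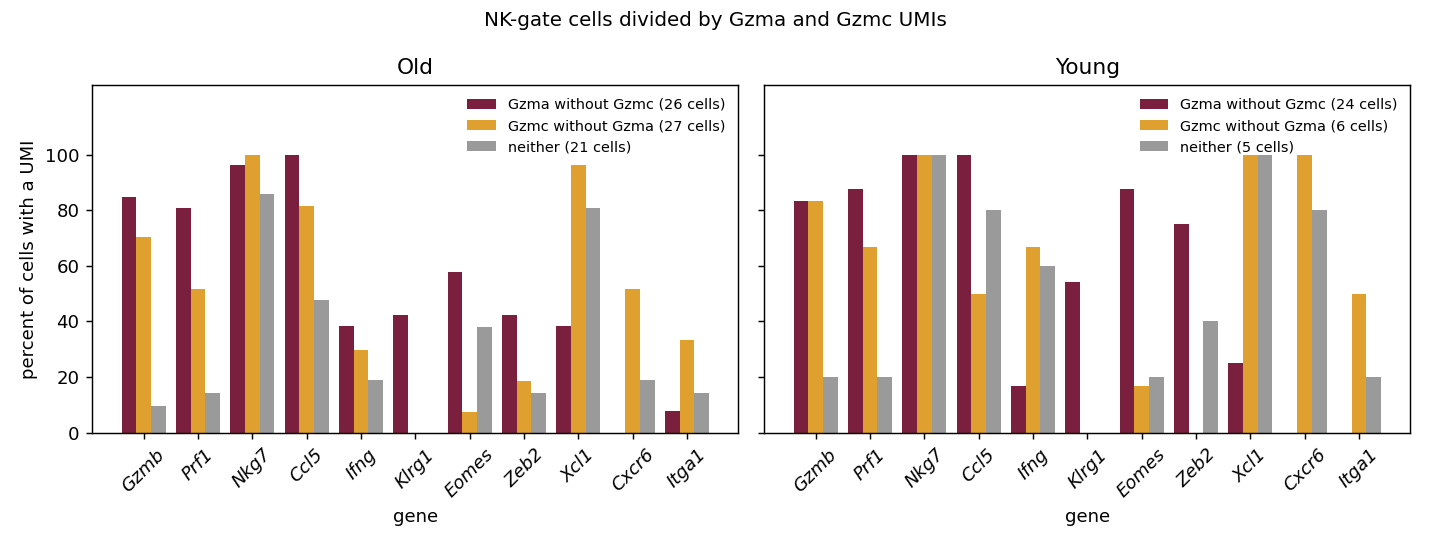
Percent of NK-gate cells with a UMI (y axis) of each gene (x axis), for cells with Gzma and no Gzmc, with Gzmc and no Gzma, and with neither, in the Old library (left) and the Young library (right). Klrg1 was seen only in cells with Gzma, in 11 of 26 in Old and 13 of 24 in Young, and Cxcr6 in no cell with Gzma.

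A list of 63 other genes of cytotoxic lymphocytes was read in the same way. In CD8 T cells 55 had at least 20 UMIs, of which 12 were at least 2-fold higher in Old and 7 at least 2-fold lower, against the same 9.89% and 8.72% of all genes. The largest ratios were those of Xcl1, at 334 CPM in Old and 46.6 CPM in Young (log2 ratio 2.84, 1.79 to 4.16), Tigit, at 243 CPM in Old and 59.98 CPM in Young (2.02, 1.09 to 3.15), and Il18r1, an interleukin-18 receptor chain, at 24.6 CPM in Old and 6.66 CPM in Young (1.89, -0.63 to 7.20). The Young value of Il18r1 was a single UMI and its interval holds both directions. The lowest were S1pr5, a receptor that guides effector cells out of tissue, at 3.63 CPM in Old and 66.6 CPM in Young (-4.20, -5.47 to -2.87), Ccr7, the lymph node homing receptor, at 84.0 CPM in Old and 500 CPM in Young (-2.57, -2.94 to -2.19), and Cx3cr1, the fractalkine receptor, at 6.48 CPM in Old and 33.3 CPM in Young (-2.36, -3.77 to -0.62).

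By group, 4 of 6 genes of naive and recirculating T cells were lower in Old CD8 T cells and 0 higher. Of the 5 inhibitory receptors 2 were higher and 0 lower, and of 13 genes of the lytic granule 3 were higher and 0 lower. Of 5 genes of tissue-resident cells 2 were higher and 0 lower, and of 6 death ligands and cytokines 2 and 0. Of 12 other receptors 2 were higher and 2 lower, and of 8 transcription factors 1 and 1. Of all genes in these cells 9.89% were higher and 8.72% lower. In NK cells 40 listed genes had enough UMIs, of which 1 was higher and 9 were lower, where 10.0% of all genes were higher and 9.48% lower. The one that was higher was Il7r, the interleukin-7 receptor, at 58.3 CPM in Old and 11.3 CPM in Young (2.37, 0.33 to 5.51), from 20 and 2 UMIs, while Ctla4 (0.78) and Ctsc (0.57), next in order, did not reach 2-fold. The lowest were S1pr5, at 20.4 CPM in Old and 95.9 CPM in Young (-2.23), Il12rb2, an interleukin-12 receptor chain, at 49.6 CPM in Old and 209 CPM in Young (-2.07), and Cxcr6, at 108 CPM in Old and 276 CPM in Young (-1.36). Scaled to the leukocyte genes, Cxcr6 stood at -0.66, under 2-fold, and Ctla4 at 1.49 and Ctsc at 1.27, past it, and 3 listed genes were higher and 2 lower. In CD8 T cells the same scaling gave 21 higher and 6 lower of the 54 genes with UMIs in both libraries. This scaling moves every gene alike, and the shares of all genes under it are not given here. The scaled counts in both gates are therefore not read as a result about the listed genes. Between CD8 T and NK cells, 11 of 55 listed genes were higher in CD8 T cells and 14 lower in Old, where 8.70% of all genes were higher and 5.48% lower, and 4 of 37 were higher and 17 lower in Young, where 4.93% of all genes were higher and 11.7% lower.

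The receptors of the secreted members were measured across the tissue. Ifngr1, the ligand-binding chain of the interferon gamma receptor, was at 566 CPM in Old and 427 CPM in Young CD8 T cells and at 706 CPM in Old and 1032 CPM in Young NK cells. Cells with at least 3 UMIs of the RPE genes Rpe65 and Rlbp1, a gate that also takes in other cells with free RPE RNA, had 45.9 CPM of it in Old and 50.8 CPM in Young. Ifngr2, the second chain, was at 83.3 CPM in Old and 95.9 CPM in Young in cells with at least 3 C1q UMIs, a macrophage gate, at 26.4 CPM in Old and 29.5 CPM in Young in the RPE gate, and at 19.2 CPM in Old and 73.3 CPM in Young in CD8 T cells.

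Of the receptors of Ccl5, Ccr1 was at 19.7 CPM in Old and 17.4 CPM in Young C1q cells, and Ccr3 had 4 UMIs in all Old cells and 1 UMI in all Young cells. Of the cadherins bound by Klrg1, Cdh1 was at 0.632 CPM in Old and 6.08 CPM in Young in the RPE gate. The lower Old level was not particular to that gate. Cdh1 was at 0.730 CPM in Old and 11.3 CPM in Young in the C1q gate. In cells with at least 5 UMIs of Col1a1, Col1a2 and Dcn, a fibroblast gate, it was at 0.553 CPM in Old and 5.29 CPM in Young. In CD8 T cells Cdh1 was at 23.6 CPM in Old and 6.66 CPM in Young. That Young value was 1 UMI, and its counting interval (0.169 to 37.1 CPM) holds the Old value, so no direction is shown. NK cells had Cdh1 at 14.6 CPM in Old and 45.1 CPM in Young, from 5 and 8 UMIs. T cells without a Cd8 UMI had 3.51 CPM in Old and 31.5 CPM in Young, from 6 UMIs in each library. Cdh2 was at 10.4 CPM in Old and 11.9 CPM in Young in the RPE gate.

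Outside both gates the members were also read. Over all other cells, 5 of 8 genes were at least 2-fold higher in Old and 1 lower, where 5.89% of 17392 genes were higher and 7.96% lower. The median log2 ratio there was 1.64 for the effector genes and -0.14 for all genes with UMIs in both libraries. Gzmk (5.21), Ifng (2.64), Ccl5 (2.11), Nkg7 (2.06) and Prf1 (1.23) were higher and Gzma (-1.07) lower. Many of these cells carried a Cd3 UMI. Ccl5 was found in 462 such Old cells, of which 43.7% had a Cd3 UMI against 2.72% of the rest, and in 89 Young cells, of which 31.5% had one against 0.168% of the rest. T cells without a Cd8 UMI, 398 in Old and 40 in Young, had Nkg7 at 363 CPM in Old and 888 CPM in Young, Gzmk at 138 CPM in Old and 47.3 CPM in Young, and Gzma at 39.2 CPM in Old and 1067 CPM in Young. The Young values rested on few cells, with 9 Gzmk UMIs in 7.5% and 203 Gzma UMIs in 20% of the 40 cells. Those 9 were all the Gzmk UMIs of Young cells outside both gates, so the ratio of 5.21 rests on them too.

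Near the edge of the CD8 T gate the levels were lower. In Old, the 127 cells just inside it, with 2 Cd3 UMIs or 1 Cd8 UMI, had Nkg7 at 882 CPM and Gzmk at 211 CPM, against 1682 CPM and 336 CPM in the 782 cells further inside. The 37 cells just outside, with 1 Cd3 UMI, had Nkg7 at 497 CPM and Gzmk at 102 CPM. In the Old NK gate, 16 cells with a single UMI of Ncr1 and Klrb1c had Gzma at 1618 CPM and the 58 others at 2391 CPM, and 22 cells outside it for a Cd3 UMI had 493 CPM.

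The summed level of the 9 genes was compared with every other gene over 16 points, the 8 groups of cells in each library, on a scale of log2(CPM + 10). The 5 genes most like it, leaving out gate genes, were Ctsw (Pearson r = 0.983), a cathepsin of cytotoxic cells, Fasl (0.981), a death ligand, Ms4a4b (0.977), AW112010 (0.973) and Cd96 (0.971), a receptor of T and NK cells. The points share libraries and depths, so r is a description. Ctsw was at 502 CPM in Old and 466 CPM in Young CD8 T cells and at 749 CPM in Old and 903 CPM in Young NK cells.

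In the bulk experiment the question was whether eye cups of old mice given TRULI differed from those of old Ctrl mice. The values are TPM, which scale each gene to its length and each library to a fixed total and keep no depth, so the depth is unknown. The 9 genes summed to 13.5 and 11.16 TPM in the TRULI libraries, against 39.97 and 35.88 TPM in the Ctrl libraries. Both TRULI libraries were thus lower than both Ctrl libraries. In a lysate, fewer lymphocytes and less RNA per lymphocyte cannot be told apart.

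Ccl5 had 7.13 and 6.13 TPM in TRULI, against 21.69 and 23.61 TPM in Ctrl, a log2 fold change of -1.63 on the log2(TPM + 1) scale (SE 0.21, limma adjusted p = 0.146). Nkg7 had 1.13 and 0 TPM in TRULI, against 6.77 and 5.29 TPM in Ctrl (log2 fold change -2.26, SE 0.46, limma adjusted p = 0.228). Gzma had 0.52 and 0.56 TPM in TRULI, against 3.1 and 2.05 TPM in Ctrl (-1.20, SE 0.36, limma adjusted p = 0.331). The groups do not overlap for these 3 genes, and none passed the adjusted threshold of 0.05. Gzmb had 1.89 and 1.59 TPM in TRULI, against 3.92 and 2 TPM in Ctrl (-0.49, limma adjusted p = 0.684), also without overlap. Gzmk had 2.14 and 1.52 TPM in TRULI, against 1.9 and 2.85 TPM in Ctrl (-0.25, limma adjusted p = 0.849), and its groups overlap.

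The other 4 genes were too low to enter the test, which took genes with at least 1 TPM in at least 2 libraries. Prf1 had 0.46 and 0.15 TPM in TRULI, against 0.89 and 0 TPM in Ctrl, and Ifng 0 and 0.18 TPM in TRULI, against 1.2 and 0 TPM in Ctrl. Gzmc had 0 and 1.03 TPM in TRULI, against 0.5 and 0 TPM in Ctrl, and Klrg1 0.23 and 0 TPM in TRULI, against 0 and 0.08 TPM in Ctrl. All 4 overlap between the groups.

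Of the 5 genes tested by limma, 0 were called in either direction at an adjusted p under 0.05, where 0.0198% of 15132 genes were called higher and 0.0330% lower, and 3 of the 5 had an unadjusted p under 0.05. Over all genes 963 had an unadjusted p under 0.05 with a higher and 847 with a lower value in TRULI. Both TRULI libraries lay below both Ctrl libraries for 4 of the 5 genes, where this held for 18.1% of all genes tested. The median log2 fold change was -1.20 for the 5 genes and 0.04 for all. With 2 libraries against 2 an exact permutation test cannot give a two-sided p under 0.333.

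**Figure D5:**
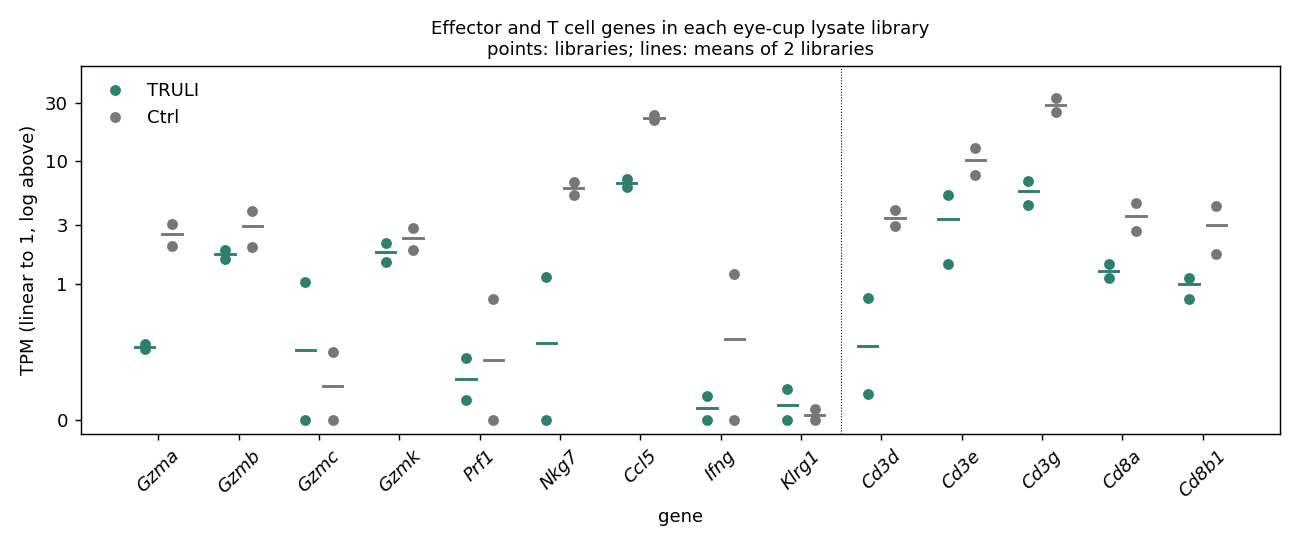
TPM (y axis, linear to 1 and logarithmic above) of the effector genes and, right of the dotted line, of Cd3 and Cd8 genes (x axis) in each eye-cup library, TRULI left of Ctrl, with lines at the means of 2 libraries. Ccl5 was at 7.13 and 6.13 TPM in TRULI and at 21.69 and 23.61 TPM in Ctrl.

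Some markers of other cells were also lower in both TRULI libraries, and none of those named here passed the adjusted threshold. Cd3d, Cd3e and Cd3g summed to 12.41 and 6.76 TPM in TRULI, against 36.68 and 48.27 TPM in Ctrl, and Cd3g alone had a log2 fold change of -2.17 (SE 0.28, limma adjusted p = 0.146). The C1q genes summed to 521 and 684 TPM in TRULI, against 1252 and 1232 TPM in Ctrl. Of other T cell genes, Trac (log2 fold change -1.99), Lck (-1.05), Cd8a (-0.99), Cd8b1 (-0.93) and Cd2 (-0.87) were lower without overlap. The T cell receptor genes Trbc1 (0.08) and Trbc2 (-0.25) overlapped between the groups, as did Csf1r (-0.08), a macrophage gene. The pan-leukocyte genes Ptprc (-0.50), Coro1a (-0.25), Laptm5 (-0.32) and Cd52 (-1.20) were lower without overlap. Pecam1, an endothelial gene, had a log2 fold change of -0.77 and Col1a1, a fibroblast gene, of 1.53, both without overlap. Of the NK gate genes, Ncr1 was listed at 0 in all 4 libraries, and Klrb1c had 0.05 and 0 TPM in TRULI, against 4.62 and 0.42 TPM in Ctrl. The 5 RPE markers summed to 29771 and 26991 TPM in TRULI, against 25913 and 25885 TPM in Ctrl. Of these, Ttr had a log2 fold change of 0.38, while Rpe65 (-0.18), Rlbp1 (-0.10) and Rgr (-0.32) were lower in TRULI by their means. The part of these cell types in the lower effector genes was not tested. Of the Ccl5 receptors, Ccr1 had 0.51 and 0.34 TPM in TRULI, against 4.25 and 3.44 TPM in Ctrl, and Ccr3 was listed at 0 in both TRULI libraries, against 4.82 and 2.82 TPM in Ctrl.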

How the data were processed

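The scRNA-seq matrices, per the labels and the methods of the study, hold UMI counts that the authors made with Cell Ranger 6.0.1 on mm10 and deposited without normalization. TPM in the bulk mouse table came from STAR and RSEM runs of the authors (the notes list STAR 2.7.3a and 2.7.10b), and which listed build it used is not given in the sources used here.

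Cells were kept with 200 genes or more, a mitochondrial share up to 10% and 0 hemoglobin UMIs. Doublets were not called. UMIs were summed per gate and scaled to CPM, with exact Poisson, conditional binomial and binomial intervals at 95%. A ratio was called at 2-fold among genes with at least 20 UMIs over both sums, and a count of 0 was compared at 3 counts. Bulk values were compared as log2(TPM + 1) in limma 3.58.1 (R 4.3.3), for genes at 1 TPM in at least 2 of 4 libraries, with Benjamini-Hochberg adjustment over all genes. Python 3.11.15, numpy 2.4.6, scipy 1.17.1 and pandas 2.3.3 were used, and both steps were tested on simulated data.

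The members and lists were chosen with earlier results of these data known. All members were named, and of the related genes the 3 largest ratios each way per gate, the ligand and receptor pairs and the 5 most similar genes. Other listed genes were named after their values were seen. Alternatives changed the cell filter, gate, depth, scaling, UMI minimum, pseudocount, TPM filter and libraries. Some listed genes are not reported here, and the human cell line table was not used here.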

Additional observations from a re-analysis of the deposited data

Results flagged for a closer look

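By their point values alone, Nkg7 and Ifng had Old over Young ratios of opposite sign in the gates. For Nkg7 the log2 ratio was 0.03 in CD8 T cells and -0.98 in NK cells, a difference of 1.01. Its interval in CD8 T cells (-0.16 to 0.23) holds 0, so it has no sign there beyond counting error. For Ifng it was 0.84 in CD8 T cells and -0.42 in NK cells, a difference of 1.25, and both of its intervals hold 0. With 1 library per age the differences were not tested, and the sign of Nkg7 in CD8 T cells held in 7 of 9 alternative settings.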

How the results depend on the processing

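Gzma and Klrg1 were at least 2-fold lower in Old CD8 T cells in all alternatives that could test them, with log2 ratios of -3.41 to -2.92 for Gzma and -4.06 to -3.61 for Klrg1, which has under 50 UMIs and dropped out at that minimum. Of 71 alternative values in CD8 T cells 62 stayed close to the value given, and of 72 in NK cells 44 did. Members at least 2-fold higher in Old CD8 T cells numbered 0, but 1 by the mean of CPM over cells (Ifng), 1 after thinning (Gzmk), and 2 (Gzmk and Ifng) both when scaled to leukocyte genes and without each gene's top cell. Members at least 2-fold lower there numbered 2, but 1 at a minimum of 50 UMIs and 4 without cells holding B cell, macrophage, endothelial, mast cell or neutrophil markers, which left 503 Old and 19 Young CD8 T cells. In NK cells 0 were higher, but 1 (Gzmc) by the mean of CPM, scaled to leukocyte genes, without cells over 2% RPE markers, without cells holding those other markers and without the top cell. The 3 lower in NK cells became 1 (Gzma) by the mean of CPM, 1 after thinning, 1 without cells over 2% RPE markers, and 0 when scaled to leukocyte genes. Klrg1 in NK cells turned from -1.15 to 0.17 without cells holding the other markers, with 26 Old and 24 Young NK cells left. Apart from the construction of each setting the cause was not tested. Shares of all genes under these alternative settings are not given here. The leukocyte scaling, the RPE limit, the shorter marker list and the removal of the top cell were chosen after seeing the data. The planned removal of cells with at least 3 UMIs of any other cell type left 0 cells and gave no value.

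The share of member UMIs in the gates was 83.6% in Old, but 82.4% with all barcodes, 82.5% with hemoglobin-positive cells kept and 75.0% with stricter gates. In Young it was 74.0%, and 72.6% with stricter gates. Stricter gates held 5.15% of Old cells as CD8 T cells and 0.382% as NK cells.

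For TRULI over Ctrl, the members called numbered 0 in each direction under all alternatives. All genes called numbered 3 higher and 5 lower, but 0 and 0 with a pseudocount of 0.1, without the filter on low values and with the replicate number as a block, and from 0 to 0 when each library was left out, where the lone library left is assumed to vary like the others. The adjusted p of Ccl5 ranged from 0.146 to 0.725, that of Nkg7 from 0.204 to 0.725 and that of Gzma from 0.331 to 0.766. Same-numbered libraries deviated together with r = 0.056. With 2 libraries per group the deviations mirror each other, so this single value cannot decide whether the numbers pair them. With the block the limma adjusted p of Ccl5 was 0.16, that of Nkg7 0.204 and that of Gzma 0.367. The depth of 27 Young CD8 T and 35 Young NK cells limits every ratio between ages.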

Other observations

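The T cell receptor beta variable genes of the CD8 T gates were read as a measure of make-up. A single Trbv gene was detected in 586 Old CD8 T cells, spread over 20 genes, of which Trbv3 (74 cells, 12.6%) and Trbv12-1 (10.4%) were the most frequent. In Young 19 cells had a single Trbv gene, spread over 10 genes. The numbers of cells are too unequal for the counts of genes to be compared.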
